A study of Mus musculus with 19 samples.

Results

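Interferon-stimulated genes were followed in bulk RNA-seq of regulatory T cells (Tregs) from lymph nodes that drain a burn injury. The set held 51 genes known to respond to interferons, found by their symbols in a table of 24982 genes. All 51 were listed, and all 51 passed the filter on low counts that left 11464 genes for testing. They fall into 41 type I-like genes, named after the type I interferons that induce them most, and 9 genes for guanylate-binding proteins (GBP) and immunity-related GTPases (IRG), with IRF1 counted in neither. CD4+FoxP3-GFP+ cells were sorted by FACS 7 days after sham treatment or a scald over 20% of the skin (water at 90 °C for 9 seconds), and were split into CD44high Tregs, the activated form, and CD44low Tregs, the resting form. The 4 groups held 4 libraries of CD44high and 5 of CD44low Tregs from uninjured (sham) mice, and 4 of CD44high and 6 of CD44low Tregs from injured mice, each made from 50000 cells. All mice were of the Foxp3DTR strain and 8 to 16 weeks old, so the controls too carry a receptor for diphtheria toxin and GFP driven from the Foxp3 locus, and no toxin is named for these samples. Whether a library holds 1 mouse or several is not given, nor is the meaning of the second number in the labels 1_2, 4_2 and 5_2 of injured CD44low Tregs, so p-values measure the spread between these libraries only.

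Interferons are secreted proteins that bind receptors on most cells. Type I interferons act through IFNAR1 and IFNAR2 and assemble a factor with STAT2 and IRF9 that binds the interferon-stimulated response element (ISRE), and interferon gamma acts through IFNGR1 and IFNGR2 on genes with the gamma-activated site (GAS). The genes they turn on hold sensors of viral RNA, enzymes and binding proteins that block viral replication, the ubiquitin-like ISG15 with its enzymes, and large GTPases that attack the vacuoles of intracellular microbes. Resting T cells keep many of these genes at a low steady level, and type I interferon signalling is known to act on Tregs during infection.

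The promoters of 4 members are printed because 3 of them belong to genes that changed after injury in CD44high Tregs and each carries a motif of the pathway. ISG15 (chr4:156200769-156201068, minus strand) and OAS1A (chr5:120907476-120907775, minus strand) rose, GBP3 (chr3:142559794-142560093, plus strand) fell, and IRF1 (chr11:53769764-53770063, plus strand) stands for the gene that is in neither set. The sequences are RefSeq windows of GRCm38.p6 from 250 bases before to 50 bases after the gene start, written 5′ to 3′ on the gene's own strand, with ISRE matches (GAAANNGAAA on either strand) and GAS matches (TTCNNNGAA, which reads the same on both strands) in capitals.
ISG15: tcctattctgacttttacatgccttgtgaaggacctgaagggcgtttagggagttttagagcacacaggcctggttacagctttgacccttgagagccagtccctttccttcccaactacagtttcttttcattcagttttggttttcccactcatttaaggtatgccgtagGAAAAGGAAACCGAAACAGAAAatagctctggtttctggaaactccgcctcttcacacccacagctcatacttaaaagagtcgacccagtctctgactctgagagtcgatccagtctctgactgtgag
OAS1A: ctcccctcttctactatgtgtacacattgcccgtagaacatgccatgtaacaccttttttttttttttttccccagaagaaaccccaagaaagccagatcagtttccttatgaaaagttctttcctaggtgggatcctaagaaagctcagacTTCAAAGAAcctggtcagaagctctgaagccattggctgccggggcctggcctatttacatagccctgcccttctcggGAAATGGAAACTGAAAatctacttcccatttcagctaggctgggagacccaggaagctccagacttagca
GBP3: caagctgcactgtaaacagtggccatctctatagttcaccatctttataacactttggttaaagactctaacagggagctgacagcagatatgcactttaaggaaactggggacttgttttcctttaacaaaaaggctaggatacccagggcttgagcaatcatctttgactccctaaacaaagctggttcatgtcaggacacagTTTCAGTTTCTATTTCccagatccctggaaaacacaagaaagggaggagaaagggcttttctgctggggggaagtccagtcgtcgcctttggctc
IRF1: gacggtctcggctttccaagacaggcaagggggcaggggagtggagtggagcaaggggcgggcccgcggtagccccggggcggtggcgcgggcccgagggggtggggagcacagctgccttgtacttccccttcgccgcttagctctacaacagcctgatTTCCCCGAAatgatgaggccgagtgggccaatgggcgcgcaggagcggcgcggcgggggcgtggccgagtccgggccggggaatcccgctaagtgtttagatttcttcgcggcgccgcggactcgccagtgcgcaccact

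A window was found for 38 of the 51 members. An ISRE match was present in 20 of the 38 (52.6%), against 3.99% of 27025 genes with a window, and a GAS match in 10 (26.3%), against 9.55%. GBP and IRG members held an ISRE match in 5 of 6 windows and type I-like members in 15 of 31. The match nearest to the gene start lay at a median of 51.5 bases upstream, within 150 bases upstream in 14 genes and after the start in 4, and 9 genes had more than 1 match. ISG15 had 3 overlapping matches in a row, OAS1A 2 overlapping ISRE matches and 1 GAS match, GBP3 2 overlapping matches on the opposite strand, and IRF1 a GAS match alone. A match is a string of letters and not a measured binding site. After injury in CD44high Tregs the median log2 fold change was 0.27 over the 20 members with an ISRE match. It was 0.22 over the 18 with a window but no such match. By the edgeR test described below, 2 members with a match were called higher and 1 lower, and 2 and 0 without. Over all genes 1.06% were called higher and 1.33% lower.

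Expression is given as CPM, the counts of a gene scaled to an equal library total with edgeR's TMM factors. The libraries held 5582234 to 9433610 counts on genes. FOXP3, which defines Tregs, was present in all 19 libraries (47.6 to 181 CPM). CD44 stood at 369 to 626 CPM in CD44high and at 102 to 155 CPM in CD44low libraries. The summed level of 7 neutrophil markers, of which 1 was at 0 in every library, was 0 to 0.833 CPM in CD44high and 0 to 1.69 CPM in CD44low Tregs of uninjured mice, and 3.85 to 19.99 and 0 to 31.4 CPM in injured mice. Macrophage and monocyte markers (8 genes, none at 0 throughout) summed to 78.5 to 147 CPM in CD44high and 29.7 to 46.7 CPM in CD44low Tregs of uninjured mice, and to 99.9 to 255 and 39.8 to 158 CPM in injured mice. Markers of conventional dendritic cells (7 genes) summed to 14.8 to 28.0, 0.843 to 3.02, 8.49 to 15.7 and 1.03 to 7.55 CPM in the same order. Those of B cells (7 genes) summed to 99.5 to 197, 75.1 to 146, 97.2 to 219 and 101 to 180 CPM in that order, which overlap. These cells express interferon-stimulated genes of their own, and their part in the values below was not tested. In bulk libraries fewer cells of a type and less RNA per cell cannot be told apart. The libraries also differed in how their counts depended on transcript length, from -0.225 (injured CD44high, library 2) to 0.162 (uninjured CD44low, library 1) in log2 CPM per doubling of length.

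Per kilobase of merged exons and over all 19 libraries, IFI27L2A, a small membrane protein, was the most abundant member (993 CPM per kilobase), followed by SLFN2 (485), IGTP (244) and IFI47 (224). MX2 (0.275), OAS2 (0.441) and MX1 (0.507), classic antiviral genes, were the 3 lowest. The per-library mean of log2 CPM served as a module score without a test. Over the 41 type I-like members it was 5.23 ± 0.23 (SD, n = 4) in CD44high and 5.59 ± 0.22 (SD, n = 5) in CD44low Tregs of uninjured mice, and 5.75 ± 0.38 (SD, n = 4) and 5.80 ± 0.20 (SD, n = 6) in injured mice. By library the type I-like score was 5.21, 5.51, 5.26 and 4.94 in uninjured and 5.55, 5.66, 6.30 and 5.49 in injured CD44high Tregs, and these ranges overlap because uninjured library 3 lies above injured library 5. The difference of the means was 0.52 and without injured library 4 it was 0.34. In CD44low Tregs it was 5.39, 5.495, 5.95, 5.61 and 5.48 in uninjured mice, where library 3 stands above the other 4, and 5.56 to 6.14 in injured mice, so the ranges overlap. Over the 9 GBP and IRG members the score was 7.82 ± 0.14 (SD, n = 4) in CD44high and 7.95 ± 0.19 (SD, n = 5) in CD44low Tregs of uninjured mice, and 7.56 ± 0.19 (SD, n = 4) and 7.84 ± 0.11 (SD, n = 6) in injured mice. The distance between the type I-like and the GBP and IRG score was -2.59 ± 0.14 in uninjured and -1.81 ± 0.19 in injured CD44high Tregs (SD, n = 4 each), with ranges of -2.78 to -2.48 and -1.96 to -1.53 that do not overlap. In CD44low Tregs it was -2.36 ± 0.07 (SD, n = 5) in uninjured and -2.04 ± 0.21 (SD, n = 6) in injured mice, with ranges of -2.47 to -2.30 and -2.20 to -1.62 that do not overlap either. The CD44low change depends on taking a mean over members. As means the scores differed after injury by 0.21 (type I-like) and -0.11 (GBP and IRG), and as medians over members by 0.019 and -0.0088.

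**Figure D1:**
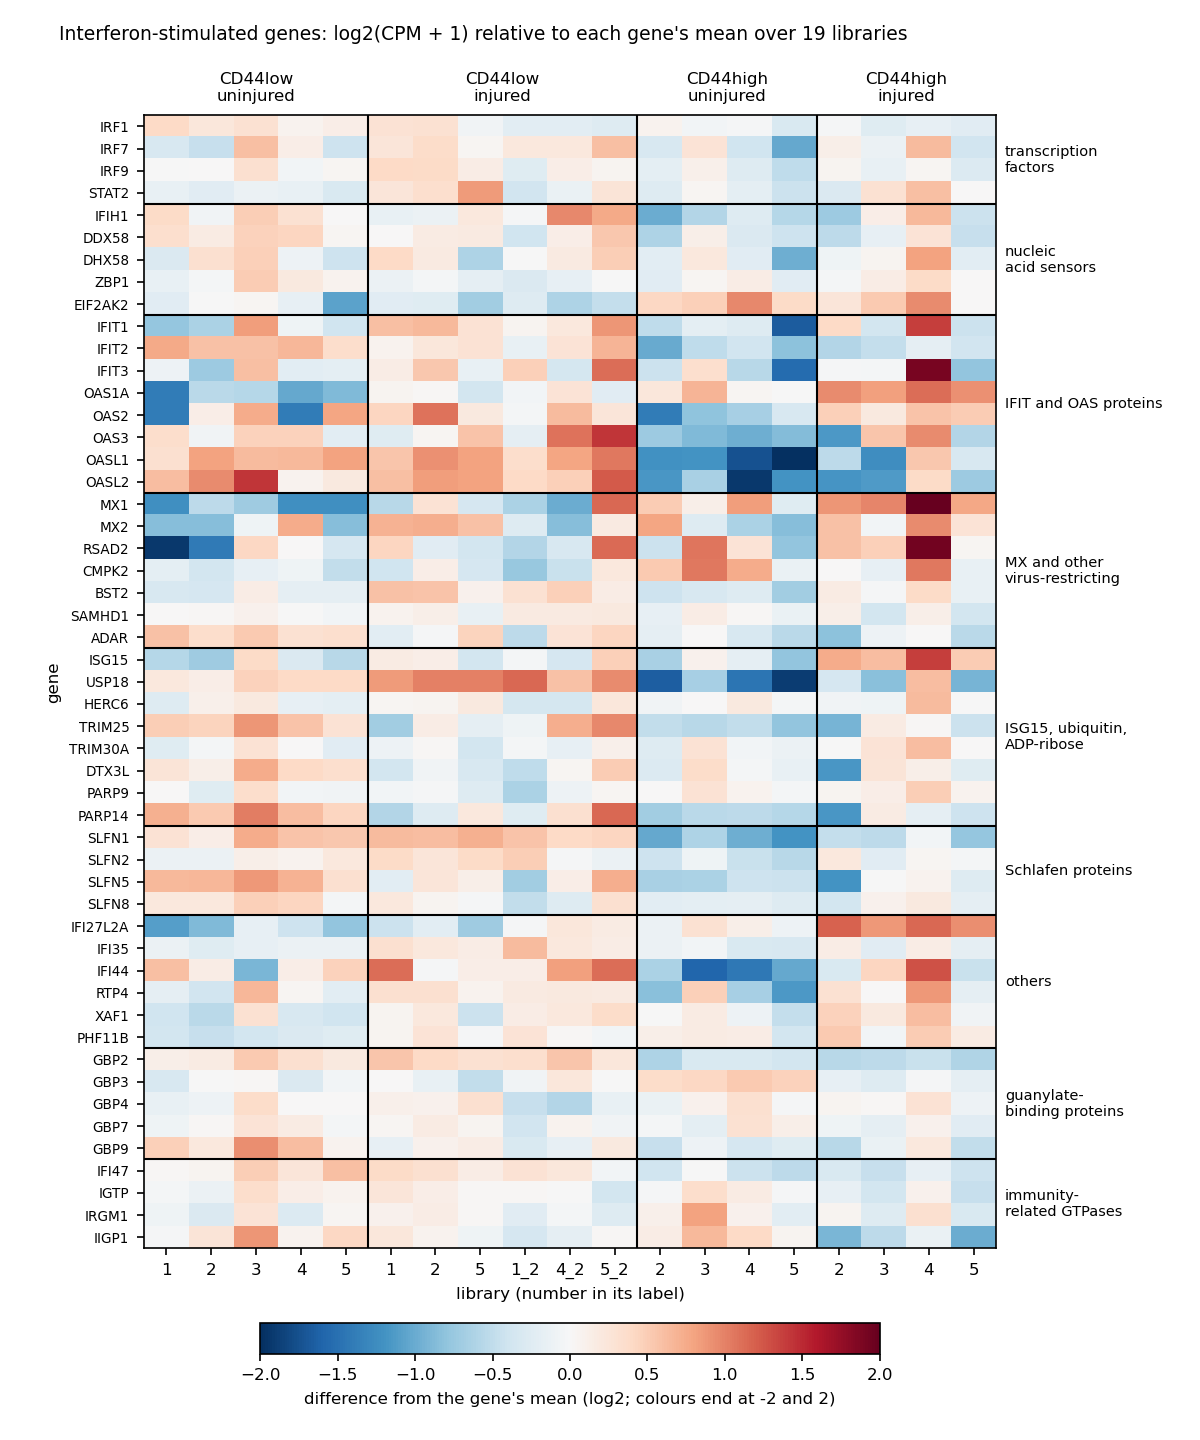
Heat map of the 51 members (rows, by role) in 19 libraries (columns, by group and label number), coloured by the difference of log2(CPM + 1) from the gene's mean over all libraries. Library 4 of injured CD44high Tregs is the highest of its group in 42 of 51 members, and library 3 of uninjured CD44low Tregs in 37.

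Single libraries stood apart over the whole set. Library 4 of injured CD44high Tregs held the highest value of its group of 4 for 42 of 51 members, while it was highest for 20.3% of all genes tested. Library 3 was highest for 32 members in uninjured CD44high Tregs (27.5% of all genes) and for 37 in uninjured CD44low Tregs (16.9%), and library 5_2 for 26 in injured CD44low Tregs (21.5%). Library 5 of uninjured CD44high Tregs was the lowest for 31 members. The summed neutrophil markers of injured CD44high library 4 (4.42 CPM) and its macrophage and monocyte markers (141 CPM) lay inside the range of the other 3 libraries of that group. Its sums for plasmacytoid dendritic cells (300 CPM, with the member BST2 included) and for stroma and endothelium (114 CPM) were the highest of the group. Those for plasma cells (242 CPM) and conventional effector T cells (51.8 CPM) were the lowest. The part of such cells in library 4 was not tested. Library 4 was kept in the fits reported here.

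**Figure D2:**
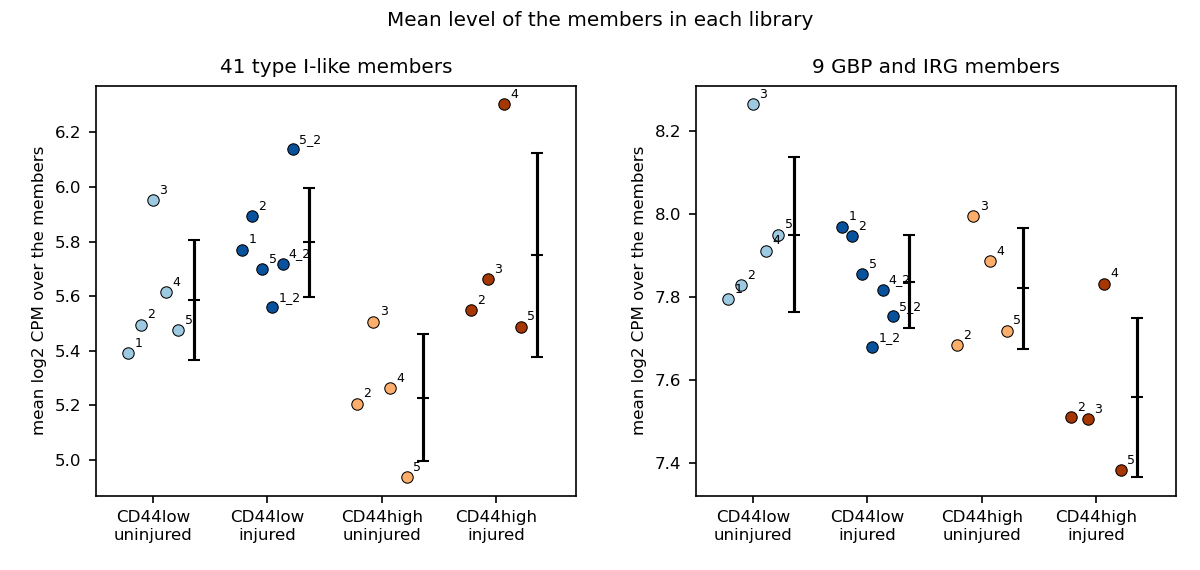
Mean log2 CPM of the 41 type I-like (left) and the 9 GBP and IRG members (right) in each library (points, with the label number), with the group mean and SD (bars). The type I-like score was 5.23 ± 0.23 in uninjured and 5.75 ± 0.38 in injured CD44high Tregs, and the GBP and IRG score 7.82 ± 0.14 and 7.56 ± 0.19.

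The first question was how injury changed the set within each Treg subset. In CD44high Tregs, 6 members rose after injury: ISG15, its protease USP18, OAS1A, OASL1, IFI27L2A and IFI44, by 1.64-fold (OAS1A) to 5.04-fold (IFI44). GBP3 and IIGP1 fell, to 0.660 and 0.524 of the uninjured level. A gene was called at an adjusted p under 0.05 (edgeR quasi-likelihood, adjusted over all 11464 genes by the Benjamini-Hochberg method). The call held for 8 of 51 members (15.7%), against 2.38% of all genes, with 6 higher against a background of 1.06% and 2 lower against 1.33%. At an unadjusted p under 0.05 there were 19 members, against 15.1% of all genes. Among the type I-like members 36 of 41 log2 fold changes, called or not, were above 0 with a median of 0.41, while 7 of 9 GBP and IRG members were below 0 with a median of -0.15. Without injured library 4 these were 33 of 41 with a median of 0.20 and 9 of 9 with a median of -0.22, and without uninjured library 3 the GBP and IRG median was -0.091. The median over all genes tested was -0.02. Ranges of the 4 injured and 4 uninjured libraries did not overlap for OAS1A, OAS2, BST2, ISG15, IFI27L2A and IFI44 (higher, background 5.93%) and for GBP3 and IIGP1 (lower, background 7.34%). The count of members called higher was 2 when uninjured library 4, uninjured library 5 or injured library 4 was left out, and the count called lower was 1 without uninjured library 3 or injured library 2 or 5. No member met the stricter rule of the study, an unadjusted p under 1e-06 with a 2-fold change, when it was set on the edgeR test. In that test 0.148% of all genes met it. The study used DESeq2 for its own calls, so this share is not the study's, and in DESeq2 0 members met the rule. The neutrophil markers summed to higher values in injured mice, as given above, and their part was not tested. CD44, the gene of the sort, was at 541 to 626 CPM in uninjured and 369 to 496 CPM in injured CD44high Tregs. Its part in the values of CD44high Tregs was not tested.

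Injury in CD44low Tregs was followed by a shorter list of calls. OAS1A, the antiviral tetherin BST2, IFI35 and PHF11B rose by 1.36-fold to 1.82-fold, and GBP9 fell to 0.697 of the uninjured level. These 5 of 51 members (9.80%) compare with 7.60% of all genes called by the same edgeR test, 4 higher against 4.24% and 1 lower against 3.36%, so the shares lie near the background. The median log2 fold change was 0.12 over type I-like members, -0.08 over GBP and IRG members and 0.01 over all genes. Ranges did not overlap for OAS1A, USP18, IFI35 and PHF11B, all higher (background 2.39%), and 0 members lay lower without overlap (background 2.29%). At an unadjusted p under 0.05 there were 16 members, against 26.0% of all genes. DESeq2 called 7 members higher and 1 lower, with no share of all genes given for it. Without the libraries 1_2, 4_2 and 5_2 the count called lower was 3, and without library 5_2 alone it was 5. It was 0 when uninjured library 1, 3 or 4 or injured library 1, 2, 1_2 or 4_2 was left out. No member met the stricter rule, which 0.122% of all genes met.

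The difference between the subsets in their change after injury was tested by the interaction term of the same fit. No member passed in edgeR's quasi-likelihood test (background 0.645% of all genes, 0.192% higher and 0.454% lower). Of the 51, 11 had an unadjusted p under 0.05, against 10.9% of all genes, and 0 met the stricter rule, against 0.0872%. DESeq2 called 1 and had 10 at an unadjusted p under 0.05, with no share of all genes given for it. GBP3, which had the smallest p, differed by -0.66 ± 0.16 (SE) on the log2 scale between the subsets, with an adjusted p = 0.0528 in edgeR. DESeq2 and RLE factors called it (adjusted p = 0.00517 and 0.0421), as did the fits without libraries 1, 2 and 5 of injured CD44low Tregs (0.00754), with libraries 1 and 1_2 and 5 and 5_2 summed (0.0227) and without library 5 of injured CD44low Tregs (0.00986). OASL1, with a difference of 1.497 ± 0.45 (SE), was called only when library 3 of injured CD44high Tregs was left out (edgeR, adjusted p = 0.0460). TRIM25 and PARP14 were called when libraries 1_2, 4_2 and 5_2 were left out (edgeR, adjusted p = 0.0433 and 0.0437). The lists of members that rose in CD44high and in CD44low Tregs are thus not shown to differ.

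**Figure D3:**
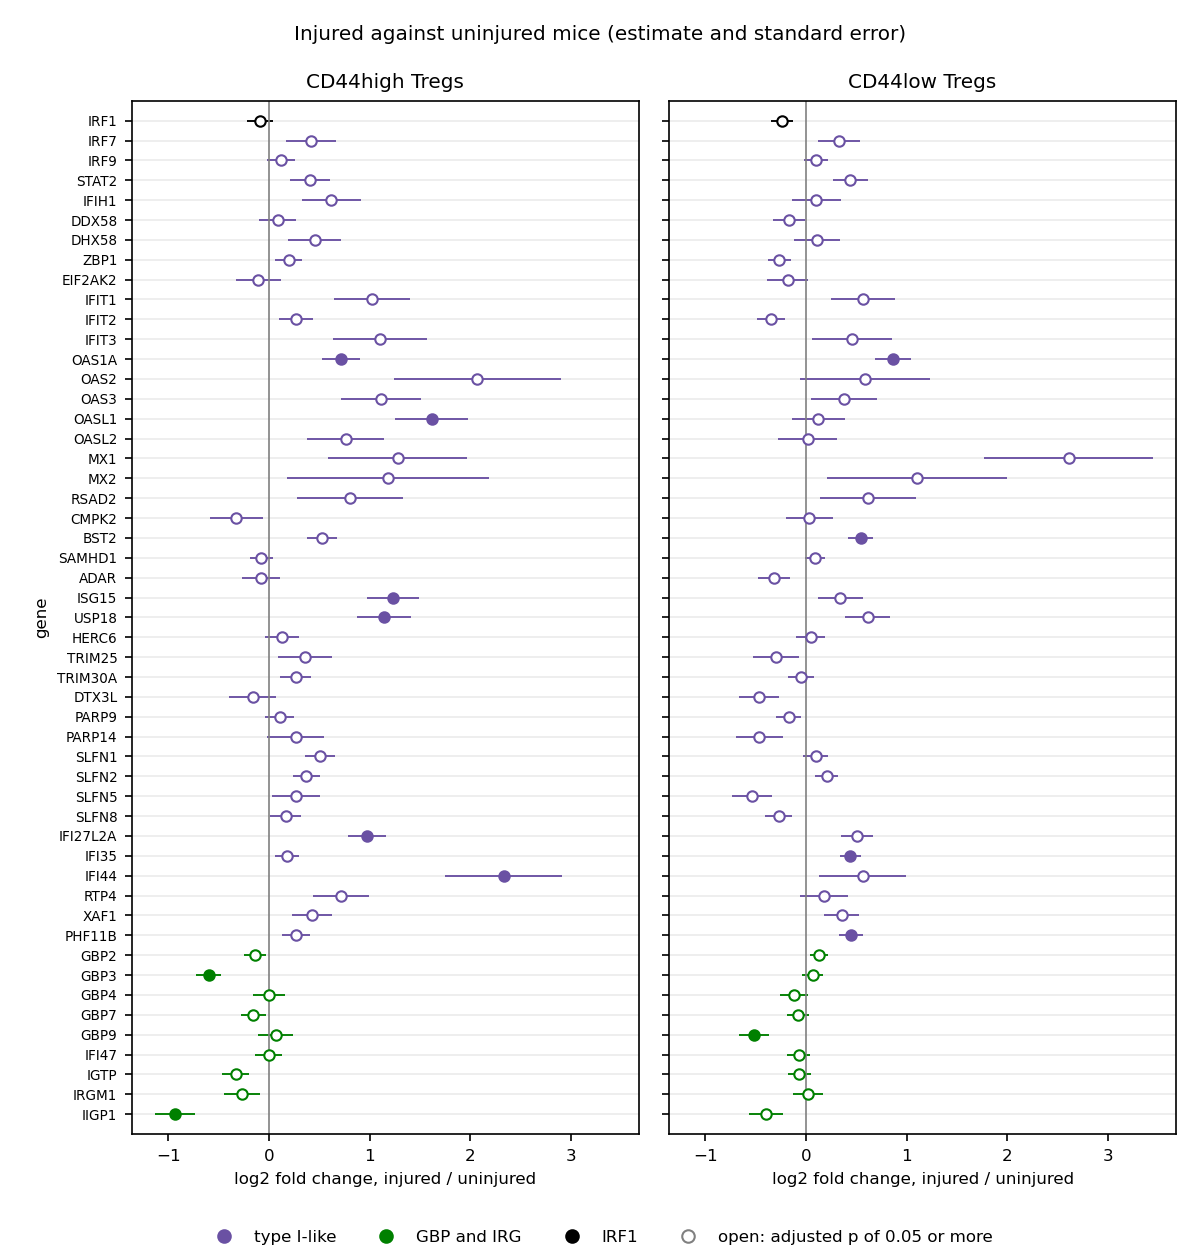
Log2 fold change of each member after injury (x axis, point with standard error) in CD44high (left) and CD44low Tregs (right), with filled points for an adjusted p under 0.05. In CD44high Tregs 36 of 41 type I-like points lie above 0 and 7 of 9 GBP and IRG points below 0.

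The second question was how the activated subset differs from the resting subset. In uninjured mice 19 members were lower and 7 higher in CD44high than in CD44low Tregs. The lower ones included OASL1 (0.164 of the CD44low level), OASL2 (0.235), USP18 (0.307), the quiescence-linked SLFN1 (0.375) and the other 3 Schlafen members, and the higher ones OAS1A (2.25-fold), EIF2AK2 (1.80-fold) and IFI27L2A (1.62-fold). This comparison was wide in general: 46.1% of all genes were called by the same edgeR test, and 26 of 51 members were, with the higher calls to be read against a background of 24.7% and the lower ones against 21.3%. At an unadjusted p under 0.05 there were again 26 members, against 52.6% of all genes. The median log2 fold change was -0.27 over the members and 0.01 over all genes. Ranges did not overlap for 16 members that were lower (background 18.8%) and 5 that were higher (background 21.9%). In injured mice 9 members were lower and 6 higher, 29.4% in all against 37.4% of all genes, with lower calls against a background of 17.2% and higher calls against 20.1%. At an unadjusted p under 0.05 there were 20 members, against 46.3%. Ranges did not overlap for 5 members that were higher (background 15.6%) and 5 that were lower (background 9.20%). The comparisons between subsets and those with injury share libraries, so their values are set side by side only. Under the stricter rule in edgeR 3 members passed in uninjured mice (SLFN1, IFIT2 and OASL1, background 8.30%) and 2 in injured mice (SLFN1 and IFI27L2A, background 6.0%), while DESeq2 gave 7 and 4. The count called higher in injured mice was 3 without injured CD44high library 4.

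The dependence of counts on transcript length did not overlap between the subsets in uninjured mice, at -0.0528 to -0.0259 in CD44high and 0.0706 to 0.162 in CD44low libraries. With that trend taken out of every library, an alternative chosen after the data were seen, 6 members were higher and 19 lower. PHF11B lost its call. Macrophage and dendritic cell markers summed to higher values in CD44high Tregs of uninjured mice, as given above. Markers of CD8 T and NK cells summed to 469 to 699 CPM in CD44high and 106 to 147 CPM in CD44low Tregs of uninjured mice. Most of the CD44high sums was GZMB, at 306 to 526 CPM against 1.25 to 5.98 CPM in CD44low Tregs. NKG7 (56.1 to 88.7 against 27.1 to 43.6 CPM) and KLRB1C (1.60 to 6.77 against 0 to 1.01 CPM) were also higher without overlap. CD8B1 overlapped between the subsets (35.3 to 48.6 against 38.3 to 54.8 CPM), as did CD8A, PRF1, NCR1, KLRD1 and EOMES. Those of stroma and endothelium (7 genes, 2 at 0 in every library) summed to 59.3 to 74.3 CPM in CD44high and 186 to 219 CPM in CD44low Tregs of uninjured mice. In injured CD44high Tregs the sum for stroma and endothelium was 78.4 to 114 CPM, above every uninjured CD44high library. Nearly all of these sums was PECAM1, at 56.1 to 70.7 CPM in uninjured and 77.6 to 111 CPM in injured CD44high Tregs. No other marker of that list exceeded 3.22 CPM in any library. The part of any such cells was not tested.

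**Figure D4:**
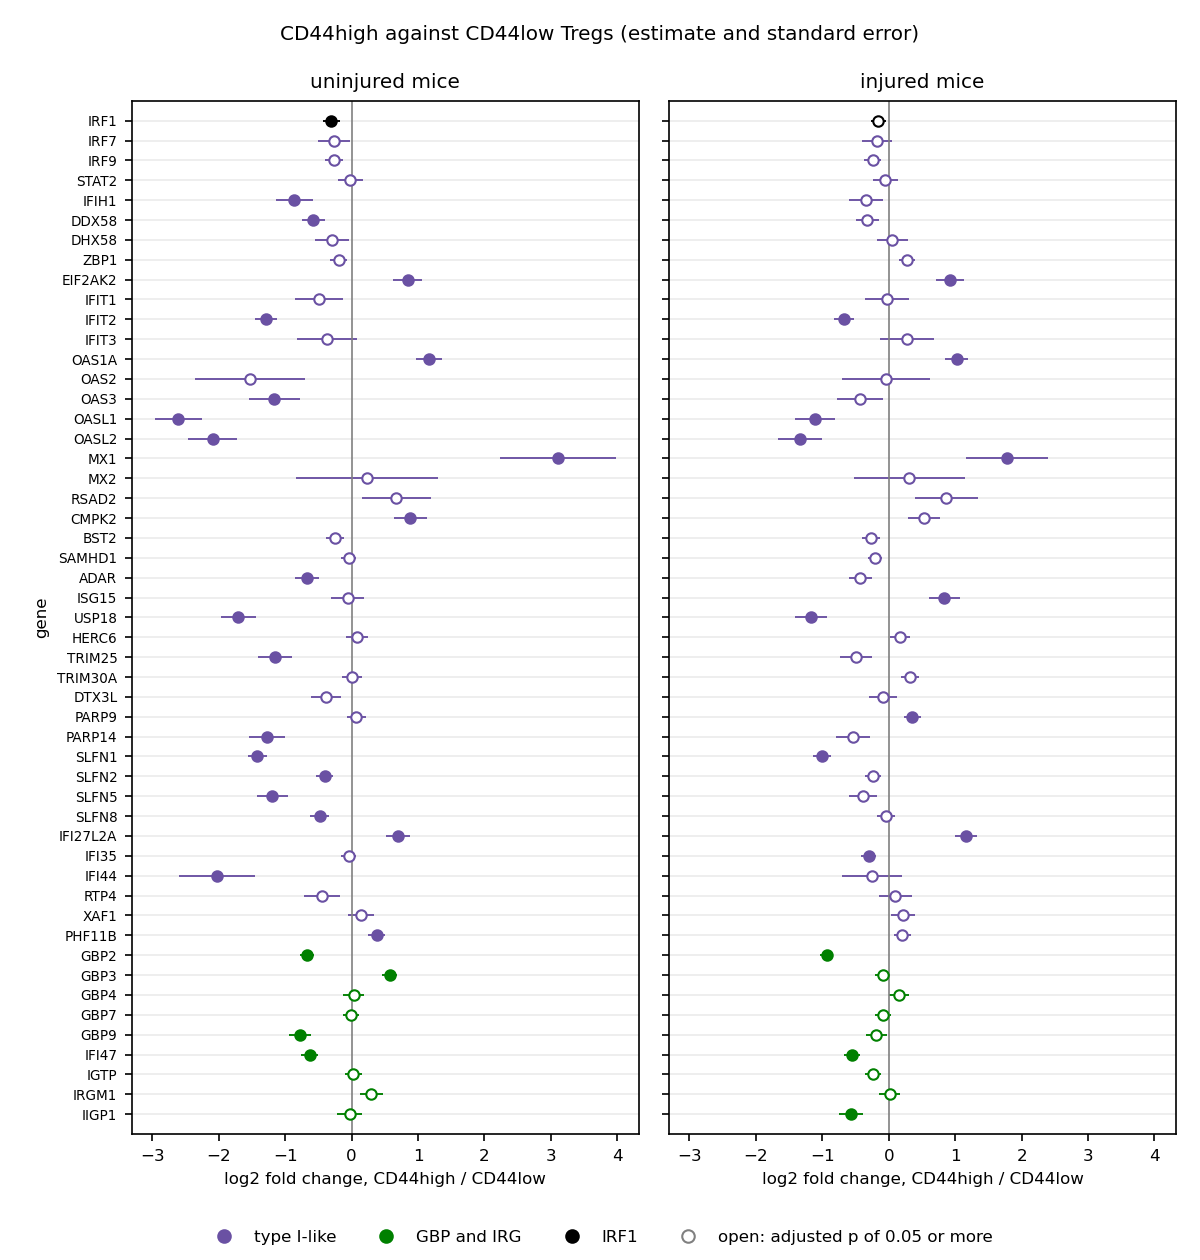
Log2 fold change of each member in CD44high against CD44low Tregs (x axis, point with standard error) in uninjured (left) and injured mice (right), with filled points for an adjusted p under 0.05. OASL1, OASL2, USP18 and SLFN1 lie to the left of 0 and OAS1A, EIF2AK2, MX1 and IFI27L2A to the right in both panels.

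Among the transcription factors, IRF7, which drives the production of type I interferons, stood at 70.9, 109, 67.5 and 43.6 CPM in uninjured and 97.0, 82.3, 139 and 68.0 CPM in injured CD44high Tregs. In CD44low Tregs IRF7 stood at 71.4, 64.7, 135, 97.6 and 66.5 CPM in uninjured and 91.3 to 136, median 105 CPM in injured mice. Values of the groups overlap, and no comparison passed (edgeR, log2 fold change 0.41 ± 0.25 (SE), adjusted p = 0.463 for injury in CD44high Tregs). That log2 fold change was 0.19 without injured library 4, 0.24 without uninjured library 5 and 0.69 without uninjured library 3. STAT2, the partner of IRF9, was at 60.9, 75.4, 63.5 and 53.9 CPM in uninjured and 59.97, 90.3, 112 and 73.5 CPM in injured CD44high Tregs. For CD44low Tregs it was at 65.6, 62.6, 67.1, 66.1 and 59.0 CPM and at 55.6 to 132, median 87.0 CPM. Its log2 fold change after injury in CD44low Tregs was 0.44 ± 0.17 (SE) with an adjusted p = 0.110 in edgeR. That value rests on which injured libraries are used, since the adjusted p was 0.00897 without 1_2, 4_2 and 5_2, was 0.0413 with the length trend taken out, and ran from 0.00897 to 0.653 over all alternatives. IRF1, induced most by interferon gamma, was at 338, 311, 319 and 262 CPM in CD44high and 428, 378, 398, 338 and 352 CPM in CD44low Tregs of uninjured mice. The CD44high libraries lie below the CD44low libraries, though the nearest pair, CD44high library 2 and CD44low library 4, is equal to 3 digits (edgeR, log2 fold change -0.30 ± 0.12 (SE), adjusted p = 0.0460). The call was lost without CD44high library 3, 4 or 5 or CD44low library 1, 2 or 3 (adjusted p 0.0604 to 0.149), with RLE factors, without the filter on low counts and with a replicate block (0.0507 to 0.0552). In injured mice IRF1 was at 316, 275, 289 and 276 CPM in CD44high and 269 to 399, median 294 CPM in CD44low Tregs, and neither this comparison nor injury itself passed in edgeR. Without libraries 1, 2 and 5 of injured CD44low Tregs the log2 fold change after injury was -0.44 (edgeR, adjusted p = 0.0234, in a range of 0.0234 to 0.826 over all alternatives), against -0.24 with them. IRF9 passed in no comparison.

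Of the 5 nucleic acid sensors, EIF2AK2, the kinase PKR that halts translation when it meets double-stranded RNA, was higher in CD44high Tregs. It was at 28.8, 29.98, 42.3 and 28.1 CPM in CD44high and 18.1, 21.1, 21.98, 18.8 and 9.61 CPM in CD44low Tregs of uninjured mice, and the ranges do not overlap. Injured mice gave 25.5, 30.9, 42.0 and 21.5 CPM and 12.8 to 18.0, median 16.4 CPM, again without overlap. Both comparisons passed in edgeR (log2 fold change 0.85 ± 0.22 (SE), adjusted p = 0.00269 in uninjured and log2 fold change 0.92 ± 0.21 (SE), adjusted p = 0.00105 in injured mice), while injury missed the threshold in both subsets. IFIH1 (MDA5) and DDX58 (RIG-I), which sense viral RNA, were lower in CD44high Tregs of uninjured mice (edgeR, log2 fold change -0.86 ± 0.28 (SE), adjusted p = 0.0148 for IFIH1). The IFIH1 call was lost without CD44high library 2 (adjusted p = 0.0524, with a range of 0.00137 to 0.0524 over all alternatives). DHX58 and ZBP1 passed in no comparison, and no sensor passed after injury.

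The IFIT and OAS proteins bind viral RNA or make the oligoadenylates that activate RNase L. OAS1A rose after injury in both subsets. It was at 8.28, 15.9, 15.5, 11.1 and 12.3 CPM in uninjured and 18.0 to 28.7, median 23.3 CPM in injured CD44low Tregs, and at 27.6, 38.3, 24.2 and 23.4 CPM in uninjured and 46.3, 42.4, 52.4 and 45.1 CPM in injured CD44high Tregs. All injured libraries of a subset lie above all its uninjured ones, and CD44high lies above CD44low in uninjured and in injured mice. The edgeR test gave log2 fold change 0.86 ± 0.18 (SE), adjusted p = 0.00540 for injury in CD44low Tregs and log2 fold change 0.72 ± 0.19 (SE), adjusted p = 0.0465 in CD44high Tregs. The CD44high call is close to the threshold and was lost when any of its 8 libraries other than uninjured library 3 was left out (adjusted p 0.0628 to 0.144) and when the length trend was taken out (0.0623), while over all alternatives it ran from 0.0114 to 0.144. The CD44low call held in every alternative fit run. CD44high exceeded CD44low Tregs with a log2 fold change 1.17 ± 0.19 (SE), adjusted p = 2.36e-05 (edgeR) in uninjured and log2 fold change 1.02 ± 0.17 (SE), adjusted p = 5.04e-05 in injured mice. A near-identical neighbour, OAS1G, had too few counts to be tested, and reads that fit both may have been split.

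OASL1, which in mice restrains the translation of IRF7, showed the reverse order of the subsets. It was at 2.85, 2.88, 1.67 and 1.23 CPM in CD44high and 10.2, 14.5, 12.8, 12.9 and 14.5 CPM in CD44low Tregs of uninjured mice, where every CD44high library lies below every CD44low library. After injury it was at 5.17, 2.75, 11.95 and 6.15 CPM in CD44high and 10.3 to 17.4, median 14.5 CPM in CD44low Tregs. The subsets differed in edgeR by log2 fold change -2.61 ± 0.35 (SE), adjusted p = 1.82e-06 in uninjured and log2 fold change -1.11 ± 0.29 (SE), adjusted p = 0.00446 in injured mice. In CD44high Tregs OASL1 rose after injury (log2 fold change 1.62 ± 0.36 (SE), adjusted p = 0.0156 in edgeR), with library 4 far above the other 3 and library 3 below uninjured libraries 2 and 3. That call was lost without uninjured library 4 or 5 or injured library 4 (adjusted p 0.0529 to 0.0843).

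IFIT2, an inhibitor of translation, was at 24.0, 34.4, 37.7 and 27.4 CPM in CD44high and 84.3, 74.9, 74.7, 79.1 and 62.9 CPM in CD44low Tregs of uninjured mice, and at 32.5, 35.3, 43.4 and 37.4 and 44.3 to 79.9, median 58.9 CPM in injured mice. CD44high libraries lie below all CD44low libraries in both states (edgeR, log2 fold change -1.29 ± 0.16 (SE), adjusted p = 6.17e-07 in uninjured and log2 fold change -0.67 ± 0.15 (SE), adjusted p = 0.00123 in injured mice). Its close relative IFIT1 gave other values. IFIT1 was at 40.4, 50.3, 48.3 and 17.7 CPM in uninjured and 77.1, 44.6, 153 and 42.7 CPM in injured CD44high Tregs. For CD44low Tregs IFIT1 was at 33.6, 37.1, 105, 54.6 and 43.7 CPM and at 60.5 to 108, median 79.5 CPM. No comparison of IFIT1 passed (edgeR, log2 fold change 1.03 ± 0.38 (SE), adjusted p = 0.170 for injury in CD44high Tregs), and without injured library 4 the log2 fold change was 0.49. All 8 genes of this role had a log2 fold change above 0 after injury in CD44high Tregs, with a median of 1.06. Of these, OAS1A and OASL1 passed. The median includes injured library 4, and its value without that library is not given here. IFIT3 was at 23.2, 22.9, 90.2 and 13.2 CPM in injured CD44high Tregs, against an uninjured mean of 17.6 CPM. OASL2 was at 5.44, 5.71, 18.2 and 7.85 CPM, against an uninjured mean of 5.51 CPM. For OAS1A and OAS2 every injured CD44high library lay above every uninjured one. OAS3 was lower in CD44high Tregs of uninjured mice (edgeR, log2 fold change -1.16 ± 0.39 (SE), adjusted p = 0.0169), and OASL2 was lower in uninjured (log2 fold change -2.09 ± 0.37 (SE), adjusted p = 6.14e-05) and injured mice (log2 fold change -1.34 ± 0.33 (SE), adjusted p = 0.00261). IFIT3 and OAS2 passed in no comparison.

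Of the 7 MX and other virus-restricting proteins, MX1, a dynamin-like GTPase against influenza virus, was near the limit of detection. It was at 0, 0.630, 0.425, 0 and 0 CPM in CD44low Tregs of uninjured mice, 7 counts over 5 libraries, and at 2.32, 1.52, 3.17 and 0.982 CPM in CD44high Tregs, 49 counts over 4. The ranges do not overlap (edgeR, log2 fold change 3.11 ± 0.87 (SE), adjusted p = 0.00552). In injured mice MX1 was at 3.32, 3.597, 9.26 and 3.01 CPM in CD44high and 0.180 to 4.20, median 0.725 CPM in CD44low Tregs (edgeR, log2 fold change 1.78 ± 0.62 (SE), adjusted p = 0.0269). That call was lost without injured CD44high library 4 or CD44low library 1, 5, 1_2 or 4_2 (adjusted p 0.0512 to 0.176), with a replicate block (0.235) and without libraries 1, 2 and 5 of injured CD44low Tregs (0.154), and ran from 0.00285 to 0.235 over all alternatives. After injury in CD44low Tregs MX1 had a log2 fold change of 2.61 ± 0.84 (SE) and missed the call in edgeR (adjusted p = 0.0557), which it passed without uninjured library 2 or injured library 4_2 (0.0339 to 0.0445), in DESeq2 (0.0169), without the filter on low counts (0.0483) and after thinning to the smallest total (0.0487), with a range of 0.0169 to 0.115 over all alternatives.

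BST2, or tetherin, which holds budding virus at the cell surface, was at 69.8, 69.1, 96.6, 77.3 and 77.4 CPM in uninjured and 92.9 to 131, median 115 CPM in injured CD44low Tregs. Uninjured library 3 overlaps the lower end of the injured libraries, and the rise passed (edgeR, log2 fold change 0.54 ± 0.13 (SE), adjusted p = 0.0119). The call was lost without libraries 1, 2 and 5 of the injured group (adjusted p = 0.0527) and with the length trend taken out (0.0590), in a range of 0.00101 to 0.0590 over all alternatives. In CD44high Tregs BST2 was at 65.4, 69.9, 73.3 and 53.9 CPM in uninjured and 98.3, 86.2, 114 and 79.2 CPM in injured mice. These ranges do not overlap, yet the change missed the threshold (edgeR, log2 fold change 0.53 ± 0.15 (SE), adjusted p = 0.0572). BST2 is also a marker of plasmacytoid dendritic cells, whose 7 markers, BST2 included, summed to 245 to 303 CPM in uninjured and 266 to 300 CPM in injured CD44high Tregs, and to 198 to 276 and 240 to 288 CPM in CD44low Tregs. Single markers of that list differed more than the sum. SIGLECH was at 9.29 to 21.7 CPM in CD44high and 0 to 1.73 CPM in CD44low libraries. CCR9 ran the other way, at 2.32 to 11.7 and 8.80 to 17.95 CPM. The part of such cells was not tested. CMPK2 was higher and ADAR lower in CD44high Tregs of uninjured mice, while RSAD2 (viperin), MX2 and SAMHD1 passed in no comparison.

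ISG15, the ubiquitin-like protein that is attached to other proteins, rose after injury in CD44high Tregs. It was at 16.6, 28.1, 23.3 and 14.9 CPM in uninjured and 45.1, 41.05, 70.2 and 37.9 CPM in injured CD44high libraries, or 20.7 ± 6.14 and 48.6 ± 14.7 CPM (SD, n = 4 each). Every injured library lies above every uninjured one, and the call held in every alternative fit run (edgeR, log2 fold change 1.23 ± 0.26 (SE), adjusted p = 0.00817). In CD44low Tregs ISG15 was at 17.5, 15.7, 34.6, 21.5 and 17.7 CPM in uninjured and 20.2 to 37.2, median 27.5 CPM in injured mice, which overlap (edgeR, log2 fold change 0.34 ± 0.22 (SE), adjusted p = 0.347). CD44high Tregs of injured mice lay above CD44low ones (edgeR, log2 fold change 0.84 ± 0.23 (SE), adjusted p = 0.00538), although without CD44high library 4 the adjusted p was 0.0501 (range 0.00233 to 0.0501 over all alternatives). In uninjured mice the log2 fold change between the subsets was -0.056 ± 0.25 (SE).

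USP18 takes ISG15 off its targets and damps signalling from the type I receptor. It was at 82.8, 78.5, 99.1, 95.1 and 94.6 CPM in uninjured and 108 to 159, median 141 CPM in injured CD44low Tregs, and at 22.3, 44.7, 25.5 and 18.4 CPM in uninjured and 56.7, 39.7, 110.4 and 37.2 CPM in injured CD44high Tregs. Injured CD44high library 4 reaches the CD44low range, and the other 3 stay at 37.2 to 56.7 CPM. USP18 was lower in CD44high than in CD44low Tregs (edgeR, log2 fold change -1.70 ± 0.26 (SE), adjusted p = 1.28e-05 in uninjured and log2 fold change -1.17 ± 0.24 (SE), adjusted p = 0.000532 in injured mice). After injury it rose in CD44high Tregs (edgeR, log2 fold change 1.14 ± 0.27 (SE), adjusted p = 0.0215). That call was lost without uninjured library 2, 4 or 5 or injured library 4 (adjusted p 0.0644 to 0.119, with a log2 fold change of 0.69 without injured library 4) and in the fit of the compared groups alone (0.0504). In CD44low Tregs all injured libraries lie above all uninjured ones, but the change missed the threshold (edgeR, log2 fold change 0.61 ± 0.22 (SE), adjusted p = 0.0860). In the rest of this role, the ubiquitin ligase TRIM25 and the ADP-ribosyltransferase PARP14 were lower in CD44high Tregs of uninjured mice (log2 fold changes -1.15 and -1.27), PARP9 was higher in injured mice (0.35), and HERC6, TRIM30A and DTX3L passed in no comparison. The PARP9 call was lost without injured CD44high library 4 or CD44low library 5, 1_2 or 4_2 (adjusted p 0.0513 to 0.182), and also without the filter on low counts, with the compared groups alone, with a replicate block, and without libraries 1_2, 4_2 and 5_2 or 1, 2 and 5 of injured CD44low Tregs (0.0575 to 0.167).

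**Figure D5:**
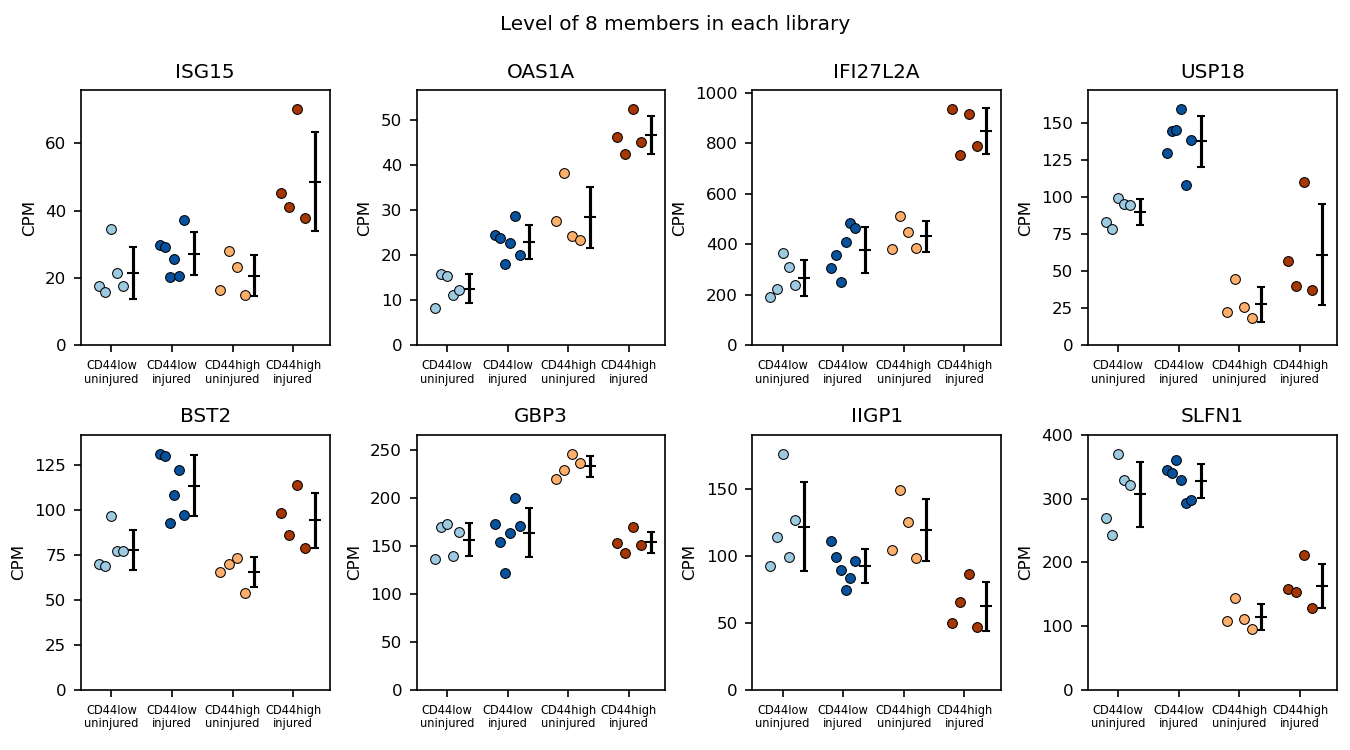
CPM of 8 members in each library (points) by group, with the group mean and SD (bars), on linear axes that start at 0. ISG15, OAS1A and IFI27L2A of injured CD44high Tregs lie above all uninjured CD44high libraries, GBP3 and IIGP1 lie below them, and USP18 and SLFN1 are lower in CD44high than in CD44low Tregs of uninjured mice.

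The guanylate-binding proteins, dynamin-like GTPases that coat microbial vacuoles, differed among themselves. GBP2 was at 112, 140.2, 139 and 133 CPM in CD44high and 187, 194, 249, 216 and 198 CPM in CD44low Tregs of uninjured mice, and at 117, 120.2, 127 and 113 and 203 to 255, median 223 CPM in injured mice. CD44high lies below CD44low in both states without overlap (edgeR, log2 fold change -0.67 ± 0.10 (SE), adjusted p = 1.39e-05 in uninjured and log2 fold change -0.94 ± 0.10 (SE), adjusted p = 9.75e-08 in injured mice), and injury missed the threshold in both subsets. GBP3 ran the other way in uninjured mice, at 219.9, 229, 246 and 237 CPM in CD44high and 136, 169, 173, 139 and 164 CPM in CD44low Tregs (edgeR, log2 fold change 0.58 ± 0.11 (SE), adjusted p = 0.000263). After injury GBP3 was at 152, 142, 169 and 151 CPM in CD44high Tregs, all below the uninjured libraries, and at 122 to 199.6, median 167 CPM in CD44low Tregs. The fall in CD44high Tregs passed and held in every alternative fit run (edgeR, log2 fold change -0.60 ± 0.12 (SE), adjusted p = 0.00631), and the log2 fold change in CD44low Tregs was 0.064 ± 0.10 (SE). GBP9 was at 112, 143, 122 and 131 CPM in CD44high and 216, 179, 294, 238 and 163 CPM in CD44low Tregs of uninjured mice, without overlap (edgeR, log2 fold change -0.78 ± 0.17 (SE), adjusted p = 0.000547). Injured mice gave 104, 141, 178 and 109 CPM in CD44high and 125 to 176, median 151 CPM in CD44low Tregs. GBP9 fell after injury in CD44low Tregs (edgeR, log2 fold change -0.52 ± 0.15 (SE), adjusted p = 0.0342), a call lost without uninjured library 1, 3 or 4 or injured library 1, 2, 1_2 or 4_2 (adjusted p 0.0549 to 0.126). It was also lost with a replicate block, without libraries 1_2, 4_2 and 5_2 or 1, 2 and 5 of the injured group, and with 1 and 1_2 and 5 and 5_2 summed (0.0545 to 0.0973). GBP4 and GBP7 passed in no comparison.

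The immunity-related GTPases, act with the GBPs on vacuoles, and none was called higher after injury. IIGP1 was at 105, 149, 125 and 98.8 CPM in uninjured and 50.1, 65.7, 86.7 and 47.4 CPM in injured CD44high Tregs, and all injured libraries lie below all uninjured ones. In CD44low Tregs it was at 92.9, 114, 177, 99.2 and 127 CPM and at 75.1 to 111, median 93.0 CPM, which overlap (edgeR, log2 fold change -0.40 ± 0.17 (SE), adjusted p = 0.134). The fall in CD44high Tregs passed (edgeR, log2 fold change -0.93 ± 0.20 (SE), adjusted p = 0.00904) and was lost without uninjured library 3 or injured library 2 or 5 (adjusted p 0.0508 to 0.0607). In injured mice IIGP1 was lower in CD44high than in CD44low Tregs (edgeR, log2 fold change -0.57 ± 0.18 (SE), adjusted p = 0.0173), a call lost without CD44high library 2 or 5 (adjusted p 0.0561 to 0.0819) or without libraries 1, 2 and 5 of injured CD44low Tregs (0.1001). IFI47 was at 408, 537, 401 and 373 CPM in CD44high and 546, 563, 756, 635 and 815 CPM in CD44low Tregs of uninjured mice, and at 438, 391, 480.0 and 406 and 517 to 699.6, median 645 CPM in injured mice. CD44high libraries lie below CD44low libraries in both states (edgeR, log2 fold change -0.63 ± 0.13 (SE), adjusted p = 0.000341 in uninjured and log2 fold change -0.55 ± 0.12 (SE), adjusted p = 0.00103 in injured mice). IRGM1, a regulator of the other GTPases, was at 234, 382, 232 and 187 CPM in uninjured and 227, 183, 273 and 177 CPM in injured CD44high Tregs. For CD44low Tregs IRGM1 was at 205, 177, 264, 180.2 and 224 CPM and at 182 to 241, median 218 CPM, and it passed in no comparison, like IGTP.

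The 4 Schlafen members, of which SLFN2 is known to keep T cells quiescent, were all lower in CD44high Tregs of uninjured mice. SLFN1 was at 109, 144, 111 and 96.1 CPM in CD44high and 269.7, 243, 370.5, 329 and 321 CPM in CD44low Tregs. Injured mice gave 158, 154, 212 and 128 CPM and 292 to 360.3, median 334 CPM. The subsets do not overlap in either state (edgeR, log2 fold change -1.42 ± 0.15 (SE), adjusted p = 2.64e-08 in uninjured and log2 fold change -1.004 ± 0.14 (SE), adjusted p = 3.28e-06 in injured mice). After injury in CD44high Tregs the log2 fold change of SLFN1 was 0.51 ± 0.15 (SE) and missed the threshold in edgeR (adjusted p = 0.0723). SLFN2, SLFN5 and SLFN8 passed in uninjured mice alone, with log2 fold changes of -0.41, -1.19 and -0.48. In injured mice these were -0.24, -0.39 and -0.041 and were not called.

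Among the other 6 members, IFI27L2A had the smallest p of the set after injury in CD44high Tregs. It was at 383, 513, 449 and 387 CPM in uninjured and 937, 756, 917 and 789 CPM in injured CD44high Tregs, or 433 ± 61.3 and 849.5 ± 90.4 CPM (SD, n = 4 each). In CD44low Tregs it was at 193, 224, 367, 309.7 and 239 CPM in uninjured and 251 to 483, median 383 CPM in injured mice. All injured CD44high libraries lie above every other library of the study. Injury in CD44high Tregs passed and held in every alternative fit run (edgeR, log2 fold change 0.97 ± 0.19 (SE), adjusted p = 0.00417), while in CD44low Tregs it missed the threshold (edgeR, log2 fold change 0.50 ± 0.16 (SE), adjusted p = 0.0551). CD44high exceeded CD44low Tregs (edgeR, log2 fold change 0.70 ± 0.18 (SE), adjusted p = 0.00241 in uninjured and log2 fold change 1.17 ± 0.17 (SE), adjusted p = 5.87e-06 in injured mice). With the length trend taken out, the log2 fold change after injury in CD44high Tregs was 0.73 for this short transcript.

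IFI35, a protein that binds NMI, was at 127, 117, 123, 127 and 128 CPM in uninjured and 152 to 214, median 160.2 CPM in injured CD44low Tregs, without overlap (edgeR, log2 fold change 0.44 ± 0.10 (SE), adjusted p = 0.0124). This call held in every alternative fit run. In CD44high Tregs IFI35 was at 127, 133, 112 and 111 CPM in uninjured and 153, 117, 154 and 122 CPM in injured mice, which overlap. It was lower in CD44high than in CD44low Tregs of injured mice (edgeR, log2 fold change -0.30 ± 0.11 (SE), adjusted p = 0.0302), a call lost without CD44high library 3 or 5 or CD44low library 1_2 (adjusted p 0.0683 to 0.119), with the compared groups alone, with a replicate block or without libraries 1_2, 4_2 and 5_2 (0.0642 to 0.112). PHF11B was at 81.7, 76.2, 81.8, 86.0 and 89.2 CPM in uninjured and 101 to 128, median 108 CPM in injured CD44low Tregs, again without overlap (edgeR, log2 fold change 0.44 ± 0.12 (SE), adjusted p = 0.0262). Without uninjured library 2 or injured library 1_2 the adjusted p was 0.0504 to 0.0557, it was 0.0802 without libraries 1, 2 and 5 of the injured group and 0.0895 with the length trend taken out, in a range of 0.00550 to 0.0895 over all alternatives. In CD44high Tregs PHF11B was at 115, 119, 116 and 81.3 CPM in uninjured and 152, 101, 149.6 and 118 CPM in injured mice. PHF11B was higher in CD44high than in CD44low Tregs of uninjured mice (edgeR, log2 fold change 0.38 ± 0.13 (SE), adjusted p = 0.0214), a call lost without CD44high library 2, 3 or 4 or CD44low library 2 (adjusted p 0.0540 to 0.0797). IFI44 was low throughout, at 1.60, 0.339, 0.4999 and 0.982 CPM in uninjured and 2.26, 4.44, 8.72 and 1.96 CPM in injured CD44high Tregs. In CD44low Tregs IFI44 was at 5.15, 3.46, 1.13, 3.45 and 4.55 CPM and at 2.99 to 7.80, median 4.78 CPM. It rose after injury in CD44high Tregs (edgeR, log2 fold change 2.33 ± 0.58 (SE), adjusted p = 0.0292) and was lower in CD44high than in CD44low Tregs of uninjured mice (edgeR, log2 fold change -2.02 ± 0.57 (SE), adjusted p = 0.00574). The former call was lost without uninjured library 3, 4 or 5 or injured library 3 or 4 (adjusted p 0.0541 to 0.138). RTP4 and XAF1 passed in no comparison.

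The upstream genes of the pathway were measured from a separate list of 20 receptors, kinases, STATs and regulators. After injury 2 of 20 were higher and 1 lower in CD44high Tregs, and 3 higher and 0 lower in CD44low Tregs. Over all genes 1.06% were higher and 1.33% lower in CD44high Tregs, and 4.24% and 3.36% in CD44low Tregs. IFNGR1, the ligand-binding chain of the interferon gamma receptor, was at 475, 511, 447, 441 and 471 CPM in uninjured and 708 to 925 CPM in injured CD44low Tregs, without overlap, and rose (edgeR, log2 fold change 0.76 ± 0.091 (SE), adjusted p = 2.69e-05). In CD44high Tregs IFNGR1 was at 289, 358, 309 and 319 CPM in uninjured and 457, 351, 432 and 431 CPM in injured mice, which overlap, and rose (edgeR, log2 fold change 0.39 ± 0.11 (SE), adjusted p = 0.0487). SOCS1, the inhibitor of JAK kinases that interferons induce, was at 188, 224, 181 and 169.6 CPM in uninjured and 145, 140.1, 126 and 129 CPM in injured CD44high Tregs and fell (edgeR, log2 fold change -0.50 ± 0.11 (SE), adjusted p = 0.0182). The phosphatase PTPN6 rose in both subsets and SOCS3, another inhibitor of JAK kinases, in CD44low Tregs.

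Between the subsets, 9 of the 20 upstream genes were lower and 3 higher in CD44high Tregs of uninjured mice, and 8 lower and 3 higher in injured mice. Over all genes 21.3% were lower and 24.7% higher in uninjured mice, and 17.2% and 20.1% in injured mice. IFNGR1, IFNGR2, JAK1, SOCS1 and IFNAR2 were lower in both states and IFNAR1 in uninjured mice (edgeR, log2 fold change -0.51 ± 0.12 (SE), adjusted p = 0.00122). JAK2 and TYK2 passed in no comparison. Of 7 interferon genes, 6 (IFNB1, IFNA4, IFNA2, IFNE, IFNL2 and IFNL3) had no count in any library, and a count of 0 allows up to 3 counts per library. IFNG reached 3.90 CPM at most and passed in no comparison. Among 46 further interferon-stimulated genes that could be tested, 2 were higher and 0 lower after injury in CD44high Tregs (MS4A4C and MS4A4B), and 4 higher and 2 lower in CD44low Tregs, with TRIM14 and NMI, both higher, at the smallest p. In uninjured mice 5 of the 46 were higher and 10 lower in CD44high Tregs, and in injured mice 5 and 8, with MS4A4C, IFIT1BL1 and IFI208 lower in both. The lower counts of these 46 lie near the 21.3% and 17.2% of all genes called lower. The injury counts of this list and the next 2 are to be read against 1.06% of all genes higher and 1.33% lower in CD44high Tregs, and 4.24% and 3.36% in CD44low Tregs. Of 10 further GBP and IRG genes 0 were called after injury in CD44high Tregs, and GBP5 was the one called, lower, in CD44low Tregs (edgeR, log2 fold change -0.79 ± 0.18 (SE), adjusted p = 0.0109). Of 14 targets of interferon gamma 2 were lower after injury in CD44high Tregs (SOCS1 and SERPINA3G) and 0 were called in CD44low Tregs.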

How the data were processed

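Bulk RNA-seq of 19 libraries of sorted Tregs was taken from the table of raw counts per gene that the authors deposited, with replicates kept apart and no normalization. Per the labels and the methods, cDNA was made with SMART-Seq reagents, fragmented and sequenced, and reads were aligned with STAR 2.5 (after bcl2fastq 2.18) through the VIPER workflow. The submitters' processing notes name the builds mm9 and mm10 without saying which one the counts use. How reads that fit several close copies (OAS, IFIT, GBP, SLFN and PHF11 families) were counted was not found in the sources at hand, and cDNA of this kind does not keep the strand, so reads of overlapping antisense genes cannot be told apart.

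Members were matched by symbol and grouped by role. The members and lists were chosen with earlier results of these data known. Counts were analysed with R 4.3.3 and edgeR 4.0.16: edgeR's filter (minimum count 10), TMM factors, 1 mean per group over all 19 libraries without covariates, and its two-sided quasi-likelihood test, adjusted over 11464 genes after Benjamini and Hochberg and called under 0.05. The prior count for log2 CPM was 2. Merged exon lengths came from GENCODE vM21 and promoters from RefSeq (GRCm38.p6), matched for 38 of 51 members. Values in every library were given for 23 members: the 5 of smallest p among those called per direction and comparison, and 9 set genes in any case. The fits were tested on simulated data. Alternatives were DESeq2 1.42.0, RLE factors, no filter, the compared groups alone, a replicate block, thinning to the smallest total, 1_2, 4_2 and 5_2 left out, 1 with 1_2 and 5 with 5_2 summed, 1, 2 and 5 left out, other call rules, other module scores and each library left out. Taking out the trend on transcript length was chosen after seeing the data. The replicate numbers were checked by correlation, which cannot decide whether they pair the libraries, and the libraries were fitted as unpaired. Python 3.11.15 with matplotlib 3.10.9 made the plots.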

Additional observations from a re-analysis of the deposited data

Results flagged for a closer look

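Single libraries stood apart in 4 of 104 group values that were checked with Dixon's test at 95%, which chance flags in about 1 in 20. EIF2AK2 was at 42.3 CPM in library 4 of uninjured CD44high Tregs, against 28.1 to 29.98 CPM in the other 3. MX1 was at 9.26 CPM in library 4 of injured CD44high Tregs, against 3.01 to 3.597 CPM. IFI35 was at 214 CPM in library 1_2 of injured CD44low Tregs, against 152 to 172 CPM in the other 5. PHF11B was at 81.3 CPM in library 5 of uninjured CD44high Tregs, against 115 to 119 CPM in the other 3.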

How the results depend on the processing

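With an unadjusted p under 1e-06 and a 2-fold change in edgeR, the members called higher and lower were 0 and 3 between the subsets in uninjured mice, 1 and 1 in injured mice, and 0 and 0 after injury in CD44high and in CD44low Tregs. DESeq2 gave 7 in uninjured and 4 in injured mice in either direction under that rule, and 0 after injury. With a 2-fold change added to the adjusted p in edgeR they were 2 and 10 in uninjured and 3 and 4 in injured mice. In CD44high Tregs OASL1, ISG15, USP18 and IFI44 were then higher after injury and 0 members lower, and in CD44low Tregs 0 and 0. No share of all genes is given here for the 2-fold rule or for DESeq2, so those counts have no background to be read against. DESeq2 called 7 members higher after injury in CD44low Tregs and 1 lower in the interaction, which RLE factors, the fit without libraries 1, 2 and 5 of injured CD44low Tregs and the fit with 1 and 1_2 and 5 and 5_2 summed also gave as 1. Without 1_2, 4_2 and 5_2 the interaction called 2 higher, and 3 members were lower after injury in CD44low Tregs, against 0 in the summed fit.

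With each library left out in turn, the subsets in injured mice differed in 3 to 7 members higher, injury in CD44high Tregs called 2 to 7 higher and 1 to 2 lower, injury in CD44low Tregs 0 to 5 lower, and the interaction 0 to 1 in each direction. IRGM1 after injury in CD44low Tregs ran from -0.013 to 0.14 in log2 fold change with libraries left out and was -0.094 without libraries 1, 2 and 5, with an edgeR adjusted p = 0.820 there and 0.955 as reported. As a median over members in place of a mean, the module difference between the subsets in uninjured mice was -0.61 for type I-like members and 0.056 for GBP and IRG members, and -0.083 for the latter in injured mice. The difference after injury in CD44low Tregs was then 0.019 in place of 0.21 for type I-like and -0.0088 in place of -0.11 for GBP and IRG members. The cause of these changes was not tested.

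A block on the replicate number gave 0 members lower after injury in CD44low Tregs and lost 5 single calls, those of IRF1 between the subsets in uninjured mice, of MX1, PARP9 and IFI35 in injured mice, and of GBP9. Correlations of the deviations of libraries with the same number ran from -0.42 to 0.37. In each comparison at most 1 pair was the best match by number. With 4 to 6 pairs per comparison this check cannot decide whether libraries with the same number share mice. The fits reported here treat the libraries as unpaired. With the trend on transcript length taken out, 65 of 70 single results kept their side of the threshold. Depth limits MX1, MX2, OAS2 and IFI44 most, each under 10 CPM in every library.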
